A study of Homo sapiens with 12 samples.

Results

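Transcript levels of 8 receptor genes through which myeloid growth factors act (CSF1R, FLT3, KIT, CSF3R, CSF2RA, CSF2RB, IL3RA and IL6R) were examined in MV4-11, a cell line from human acute myeloid leukaemia with a fusion of the KMT2A gene and an activating internal tandem duplication in FLT3. The genes were taken by symbol from a table of raw read counts with 58051 genes, and all 8 were among the 14214 genes with enough counts to test. The study compared BSJ-03-123, YKL-06-102 and palbociclib, each given at 200 nM for 6 h, with the vehicle DMSO at 0.1% for 6 h, and each of the 4 groups had 3 libraries of polyadenylated RNA. Palbociclib is an inhibitor of the kinases CDK4 and CDK6, and the series' design text calls BSJ-03-123 and YKL-06-102 conjugates specific for CDK6, in a study of selective CDK6 degradation. All libraries came from this 1 cell line, so the FLT3 duplication and the fusion were shared by every group. Nothing in the labels says whether replicates came from separate cultures, so the p-values reflect the spread of these libraries, which may be technical.

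CSF1R, FLT3 and KIT are receptor tyrosine kinases of one family: a dimeric ligand (CSF1 or IL34, FLT3 ligand, and stem cell factor) pairs 2 receptors, which then phosphorylate each other and recruit adaptors such as GRB2 and the p85 subunit of PI3 kinase. CSF3R, CSF2RA, CSF2RB, IL3RA and IL6R have no kinase of their own and signal through JAK kinases and STAT factors; CSF2RA and IL3RA are ligand-binding alpha chains that share the signalling chain CSF2RB, and IL6R signals through IL6ST, also called gp130. In normal blood formation KIT and FLT3 mark stem cells and early progenitors, CSF3R supports neutrophil formation, and CSF1R is the receptor of monocytes and macrophages. An internal tandem duplication leaves FLT3 active without ligand.

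CSF1R (ENSG00000182578) lies on the minus strand of chromosome 5, at 150053291 to 150113372 in GRCh38, and FLT3 (ENSG00000122025) on the minus strand of chromosome 13, at 28003274 to 28100592. RefSeq places a pair of transcript starts in CSF1R, 26.8 kb apart, of which the downstream one is the start used in myeloid cells. Sequences before these starts are printed because CSF1R had the largest response among the 8 genes and FLT3 the highest level. They are RefSeq sequences of GRCh38.p14, limited to the bases of the 250 before each start that lie outside annotated exons, with the final 30 bases before the downstream CSF1R start added. Capitals mark GAGGAA or its complement TTCCTC, the core of sites for the myeloid factor PU.1, and TGTGGT or ACCACA, the core of sites for RUNX factors, both searched on both strands.
CSF1R upstream start, chr5:150113373-150113615, minus strand: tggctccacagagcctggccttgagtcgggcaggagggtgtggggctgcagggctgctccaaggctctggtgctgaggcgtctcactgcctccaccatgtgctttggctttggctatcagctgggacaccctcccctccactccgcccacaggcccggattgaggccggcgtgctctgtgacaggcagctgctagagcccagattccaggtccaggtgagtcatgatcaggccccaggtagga
CSF1R downstream start, chr5:150086608-150086804, minus strand: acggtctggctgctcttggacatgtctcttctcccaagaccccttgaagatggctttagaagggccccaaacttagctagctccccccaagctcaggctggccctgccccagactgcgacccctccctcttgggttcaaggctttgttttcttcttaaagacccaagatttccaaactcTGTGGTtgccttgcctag
CSF1R downstream start, chr5:150086555-150086584, minus strand: gcccaaggagGAGGAAGAGGAAaacaagac
FLT3 start, chr13:28100593-28100826, minus strand: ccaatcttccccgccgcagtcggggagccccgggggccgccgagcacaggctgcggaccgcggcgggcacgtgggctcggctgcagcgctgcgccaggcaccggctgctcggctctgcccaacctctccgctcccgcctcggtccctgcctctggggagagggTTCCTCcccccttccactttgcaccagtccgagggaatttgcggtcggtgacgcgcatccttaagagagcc

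Before the downstream CSF1R start, GAGGAA began 20 and 14 bases upstream and TGTGGT 71 bases upstream. The window before the upstream CSF1R start held no match to either motif. The FLT3 window held 1 match to the PU.1 core, 87 bases upstream, and none to the RUNX core, and 72% of its 250 bases were G or C. Among 35116 RefSeq windows of 250 bases, 23.6% held the PU.1 core and 11.0% the RUNX core. Of the other receptors, IL6R held the PU.1 core 172 and 6 bases upstream, CSF2RA 63 and 20 bases upstream, and the second of the CSF3R starts 111 bases upstream, while the KIT and IL3RA windows held no match. CSF2RB was not in the promoter table, which covered 7 of the 8 genes.

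Library totals ranged from 18764307 to 25539858 counts. DMSO replicate 2 was the library least like its group: its counts gave a chi-square per degree of freedom of 5.72 and 8.65 when set against the 2 remaining DMSO libraries, where no other replicate pair passed 2.91. For the 8 receptors, results against DMSO are therefore also given without it where a call changed. Calls of other single genes were not examined without it. Of 9 myeloid markers 8 were tested, CD14 was too weak to test, and their summed level was 1740 to 1757 CPM (counts scaled to library size with TMM factors) under BSJ-03-123, 2031 to 2059 under YKL-06-102, 1755 to 1771 under palbociclib and 1633 to 1693 under DMSO. Lymphoid markers summed to 3.37 to 5.81 CPM over all libraries with CD2 and MS4A1 at 0, mast cell markers to 0.670 to 1.36 CPM with CPA3 at 0, and erythroid and megakaryocyte markers to 11.6 to 14.4 CPM with 6 of 9 at 0. Stromal, endothelial and epithelial markers summed to 137.5 to 172 CPM, nearly all from PECAM1, which myeloid cells also express, and COL3A1, DCN, KRT19 and EPCAM were at 0.

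In vehicle-treated cells FLT3 was by far the most abundant of the 8 receptor transcripts. Divided by the length of its annotated exons, its level was 94.7 ± 3.34 CPM per kb in DMSO (SD, n = 3). IL6R, the alpha chain of the interleukin 6 receptor, followed at 25.4 ± 0.841 CPM per kb, and IL3RA, the alpha chain of the interleukin 3 receptor and a surface antigen of leukaemic blasts, was at 25.1 ± 0.495 CPM per kb, with overlapping libraries. CSF3R, the granulocyte colony-stimulating factor receptor, was at 13.1 ± 0.505 CPM per kb, above CSF1R at 12.2 ± 0.375, and the libraries of these did not overlap. CSF2RB lay at 11.9 ± 0.618 CPM per kb and overlapped CSF1R. KIT, at 7.46 ± 0.151 CPM per kb, and CSF2RA, at 6.21 ± 0.0893 CPM per kb, were lowest and did not overlap each other. With the length of the longest transcript in place of all exons, CSF2RA at 10.4 CPM per kb stood above KIT at 8.01, and the other places were kept.

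**Figure D1:**
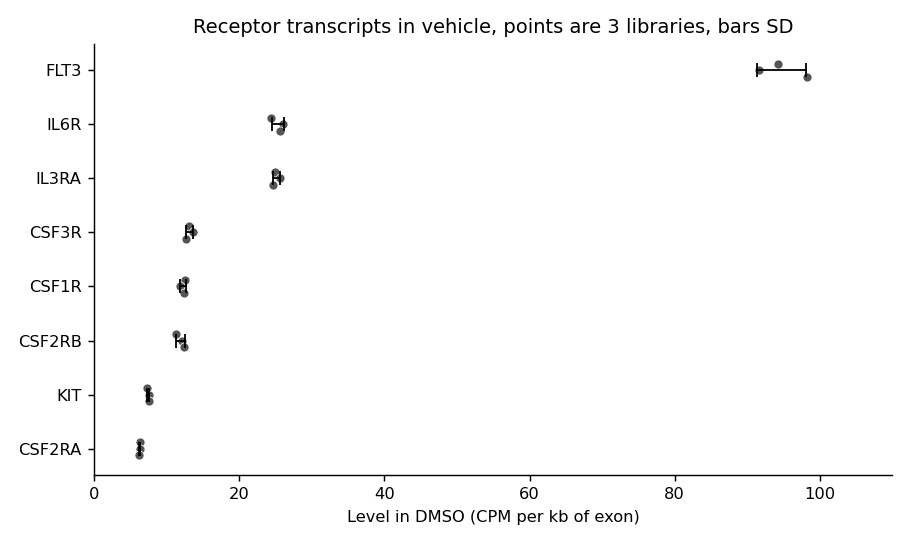
Level of the 8 receptor transcripts in DMSO, in CPM per kb of annotated exon on a linear axis; points are the 3 libraries and bars span 1 SD either side of the mean. FLT3 sits near 94.7 CPM per kb, and every other receptor lies at or below 26.1.

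Most of these receptor genes were higher after each compound than after DMSO, and no receptor passed the test for a decrease against DMSO. With edgeR's quasi-likelihood test and Benjamini-Hochberg adjustment over all tested genes (called at an adjusted p under 0.05), 7 of 8 rose under BSJ-03-123, 6 of 8 under YKL-06-102 and 7 of 8 under palbociclib. Over all tested genes, 12.4% were called higher under BSJ-03-123, 15.6% under YKL-06-102 and 15.6% under palbociclib, and 15.7%, 21.3% and 17.6% were called lower in the same order. Among the 7466 genes with at least 20 CPM in DMSO, which include all 8 receptors, the shares called higher were 16% under BSJ-03-123, 17.3% under YKL-06-102 and 18.9% under palbociclib. The median log2 fold change of the 8 was 0.17 under BSJ-03-123, 0.14 under YKL-06-102 and 0.23 under palbociclib, beside medians of all tested genes of 0.0075, -0.017 and 0.014 for the same comparisons. KIT was not called for any compound, and FLT3 was not called for YKL-06-102. The 3 comparisons share the DMSO libraries. Summed over the 8 genes, the level was 998 to 1002 CPM under BSJ-03-123, 1042 to 1050 CPM under YKL-06-102, 1025 to 1052 CPM under palbociclib and 888 to 914 CPM under DMSO, so every treated library lay above every DMSO library. For single genes, the treated libraries lay all above the DMSO libraries for 7 receptors under BSJ-03-123, 6 under YKL-06-102 and 7 under palbociclib, beside 17.8%, 19.5% and 20.7% of all tested genes. A level in bulk RNA cannot tell more RNA per cell from more cells that carry it.

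Small increases depended on single libraries. DESeq2 called 6, 5 and 7 of the receptors and limma-voom 7, 5 and 7 for BSJ-03-123, YKL-06-102 and palbociclib. Under BSJ-03-123 the number of receptors called was 3 without DMSO replicate 1 (CSF1R, IL3RA and IL6R) and 5 without DMSO replicate 2, when FLT3 and CSF2RA were no longer called. Under YKL-06-102 it was 4 without DMSO replicate 1 or without YKL-06-102 replicate 3, and under palbociclib it was at least 6 whichever library was left out. The library totals as the only scaling moved calls over all genes towards increases, to 2852 higher and 1765 lower under BSJ-03-123, against 1763 higher and 2234 lower with TMM. It left the receptor counts at 7, 6 and 7 for BSJ-03-123, YKL-06-102 and palbociclib.

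**Figure D2:**
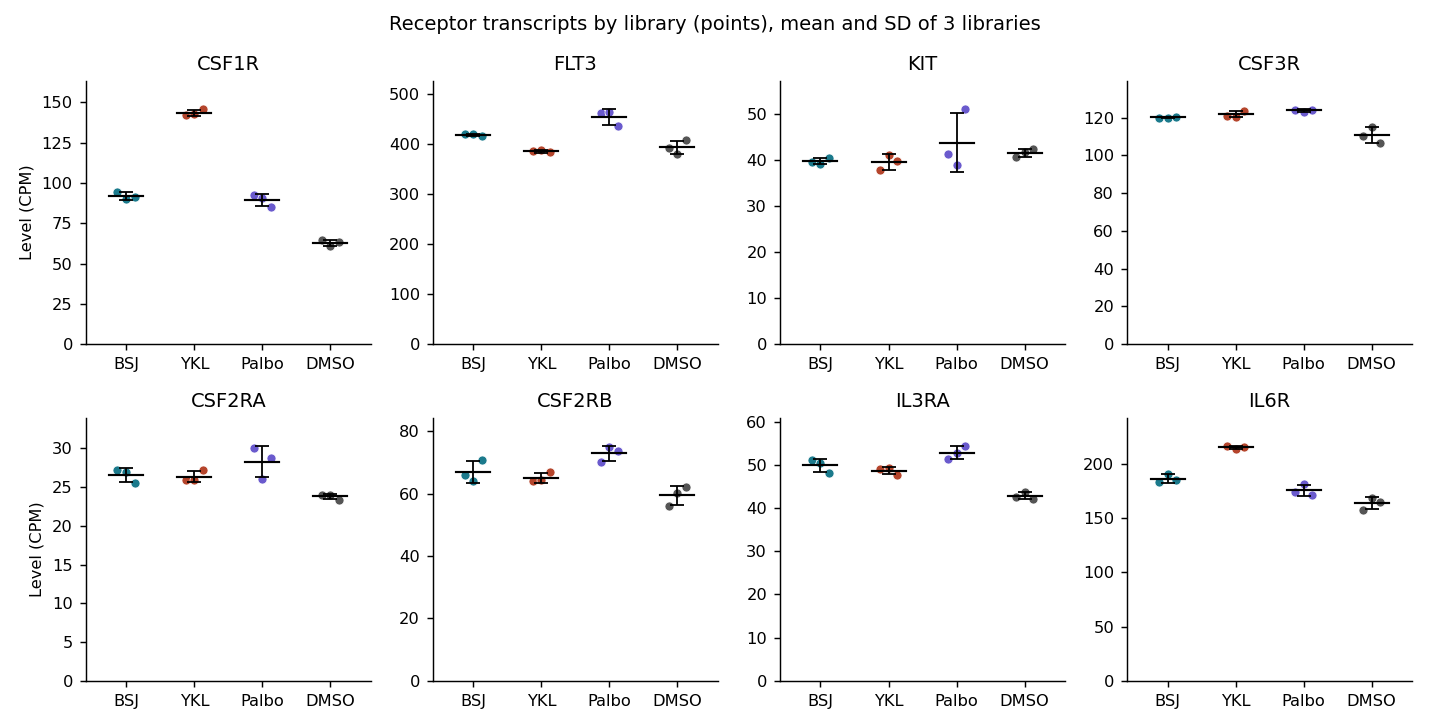
Level of each receptor transcript in CPM on a linear axis from 0, by group (BSJ for BSJ-03-123, YKL for YKL-06-102, Palbo for palbociclib); points are libraries, and horizontal lines and bars are the mean and SD of 3. CSF1R and IL6R are highest under YKL-06-102, FLT3 is highest under palbociclib, and KIT has 1 palbociclib library apart from the rest at 51.0 CPM.

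CSF1R, the receptor for macrophage colony-stimulating factor, responded most. Its level was 94.5, 89.7 and 91.3 CPM in the BSJ-03-123 libraries, 142, 143 and 146 CPM in the YKL-06-102 libraries, 92.2, 90.4 and 84.9 CPM in the palbociclib libraries, and 64.6, 60.8 and 63.5 CPM in the DMSO libraries. The YKL-06-102 libraries stood above all others, BSJ-03-123 and palbociclib overlapped, and DMSO lay below the rest. Against DMSO the log2 fold change was 0.55 ± 0.040 under BSJ-03-123 (SE, 1.46-fold, adjusted p = 7.77e-12, edgeR). Under YKL-06-102 it was 1.19 ± 0.039 (2.28-fold, adjusted p = 8.94e-20, edgeR), and under palbociclib 0.51 ± 0.040 (1.42-fold, adjusted p = 3.19e-11, edgeR). By size of increase CSF1R ranked 152 of the 14214 tested genes under YKL-06-102, 389 under BSJ-03-123 and 519 under palbociclib. These calls held in all alternative fits, 14 for BSJ-03-123 and 13 each for YKL-06-102 and palbociclib. The log2 fold changes in them were 0.52 to 0.59 for BSJ-03-123, 1.18 to 1.23 for YKL-06-102 and 0.48 to 0.55 for palbociclib. The summed myeloid markers were also highest under YKL-06-102 (2031 to 2059 CPM, against 1633 to 1693 CPM under DMSO). LYZ alone was at 841 against 658 CPM. Of the 8 tested markers, 5 were called higher than in DMSO and 1, PTPRC, lower (76.4 against 90.9 CPM). Over all tested genes these shares were 15.6% and 21.3%. The part of the markers in the CSF1R result was not tested.

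FLT3, the kinase that carries the activating duplication in this line, changed little in level. It was at 420, 421 and 416 CPM under BSJ-03-123, 386, 389 and 384 CPM under YKL-06-102, 463, 464 and 437 CPM under palbociclib, and 392, 381 and 409 CPM under DMSO. All palbociclib and BSJ-03-123 libraries lay above all DMSO libraries, whereas YKL-06-102 overlapped DMSO. The level rose by 15.5% under palbociclib (log2 fold change 0.21 ± 0.032, adjusted p = 6.20e-06, edgeR). It rose by 6.40% under BSJ-03-123 (0.09 ± 0.032, adjusted p = 0.0347, edgeR), and this call was lost without DMSO replicate 2 (0.06, adjusted p = 0.115) and in 4 of the other 5 fits that left out 1 library. With only these 2 groups fitted it was lost both with the replicate number as a block (0.09, adjusted p = 0.0644) and without (0.09, adjusted p = 0.0993). Under YKL-06-102 the log2 fold change was -0.03 ± 0.032 (adjusted p = 0.563, edgeR), and its 95% interval ran from -6.13% to 2.72%. Per length of exon, CSF1R stood at 17.7% ± 0.474 of the FLT3 level under BSJ-03-123, 29.99% ± 0.558 under YKL-06-102, 15.8% ± 0.210 under palbociclib and 12.9% ± 0.381 under DMSO (SD, n = 3 each), and the groups did not overlap.

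KIT, the stem cell factor receptor (ENSG00000157404, chromosome 4 at 54657918 to 54740715, plus strand), had no called change. Its level was 39.6, 39.1 and 40.4 CPM under BSJ-03-123, 37.7, 41.1 and 39.8 CPM under YKL-06-102, 41.3, 39.0 and 51.0 CPM under palbociclib, and 40.6, 41.7 and 42.3 CPM under DMSO. Palbociclib replicate 3 stood above all other libraries, and the BSJ-03-123 libraries lay just below those of DMSO. The log2 fold changes against DMSO were -0.06 under BSJ-03-123 (95% interval -0.20 to 0.07), -0.07 under YKL-06-102 (-0.20 to 0.06) and 0.07 under palbociclib (-0.06 to 0.20). Without palbociclib replicate 3 the last of these was -0.05.

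CSF3R (ENSG00000119535, chromosome 1 at 36466043 to 36483278, minus strand) rose with every compound. It was at 119.98, 119.9 and 120.5 CPM under BSJ-03-123, 121, 120.5 and 124 CPM under YKL-06-102, 124, 123 and 124 CPM under palbociclib, and 110.2, 115 and 107 CPM under DMSO. All treated libraries lay above all DMSO libraries. The log2 fold change was 0.12 ± 0.034 under BSJ-03-123 (adjusted p = 0.0106), 0.14 ± 0.034 under YKL-06-102 (adjusted p = 0.00201) and 0.16 ± 0.034 under palbociclib (adjusted p = 4.54e-04, edgeR for all). The BSJ-03-123 call was lost without DMSO replicate 1 (adjusted p = 0.0504) or 3 (adjusted p = 0.0883).

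The receptors for granulocyte-macrophage colony-stimulating factor and interleukin 3 rose together by modest amounts. IL3RA (ENSG00000185291, chromosome X at 1336616 to 1382689) was at 51.0, 50.4 and 48.2 CPM under BSJ-03-123, 49.0, 49.2 and 47.7 CPM under YKL-06-102, 51.4, 52.7 and 54.4 CPM under palbociclib, and 42.7, 43.8 and 42.2 CPM under DMSO. CSF2RB (ENSG00000100368, chromosome 22 at 36913628 to 36940449) was at 65.9, 64.0 and 70.7 CPM under BSJ-03-123, 64.0, 64.3 and 66.9 CPM under YKL-06-102, 70.3, 74.9 and 73.6 CPM under palbociclib, and 56.0, 60.2 and 62.0 CPM under DMSO. CSF2RA (ENSG00000198223, chromosome X at 1268800 to 1310381) was at 27.2, 27.0 and 25.6 CPM under BSJ-03-123, 25.9, 25.9 and 27.2 CPM under YKL-06-102, 30.1, 26.1 and 28.7 CPM under palbociclib, and 24.03, 23.9 and 23.4 CPM under DMSO. For these genes every treated library lay above every DMSO library, and the palbociclib mean was the highest.

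IL3RA rose by 0.22 ± 0.044 on the log2 scale under BSJ-03-123 (adjusted p = 3.77e-04), 0.18 ± 0.043 under YKL-06-102 (adjusted p = 0.00148) and 0.30 ± 0.043 under palbociclib (adjusted p = 3.24e-06, edgeR), and these calls held in every alternative fit run. The shared chain CSF2RB rose by 0.17 ± 0.046 under BSJ-03-123 (adjusted p = 0.00573), 0.13 ± 0.045 under YKL-06-102 (adjusted p = 0.0242) and 0.29 ± 0.045 under palbociclib (adjusted p = 7.68e-06, edgeR). Without DMSO replicate 1 the CSF2RB change was 0.12 under BSJ-03-123 (adjusted p = 0.0661) and 0.09 under YKL-06-102 (adjusted p = 0.167). These calls were also lost without replicate 3 of the compound itself, at 0.12 under BSJ-03-123 (adjusted p = 0.0722) and 0.13 under YKL-06-102 (adjusted p = 0.0622). For CSF2RA the log2 fold change was 0.16 ± 0.059 under BSJ-03-123 (adjusted p = 0.0417), 0.15 ± 0.058 under YKL-06-102 (adjusted p = 0.0470) and 0.25 ± 0.058 under palbociclib (adjusted p = 0.00113, edgeR). The palbociclib call held in every alternative fit, whereas the BSJ-03-123 call was lost in 8 of 14 alternative fits and the YKL-06-102 call in 6 of 13. CSF2RA and IL3RA are neighbours, 26.2 kb apart in a pseudoautosomal region that chromosomes X and Y share. The files listed 45 pseudoautosomal genes and 20 were tested, 19 of them with at least 10 counts in every library, and how the authors treated the Y copy is not given in the sources used here.

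IL6R (ENSG00000160712, chromosome 1 at 154405193 to 154469450, plus strand) followed CSF1R in its order of groups. It was at 183, 191 and 185 CPM under BSJ-03-123, 216, 214 and 216 CPM under YKL-06-102, 174, 181 and 171 CPM under palbociclib, and 158, 168 and 165 CPM under DMSO. The YKL-06-102 libraries were highest, BSJ-03-123 came next, and palbociclib lay just above DMSO with no overlap. The log2 fold change was 0.19 ± 0.033 under BSJ-03-123 (adjusted p = 6.94e-05), 0.39 ± 0.033 under YKL-06-102 (adjusted p = 8.97e-11) and 0.10 ± 0.033 under palbociclib (adjusted p = 0.0201, edgeR). The palbociclib call was lost without DMSO replicate 1 (0.07, adjusted p = 0.171), without palbociclib replicate 2 (0.07, adjusted p = 0.170), and when only the groups compared were fitted (0.10, adjusted p = 0.0602).

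**Figure D3:**
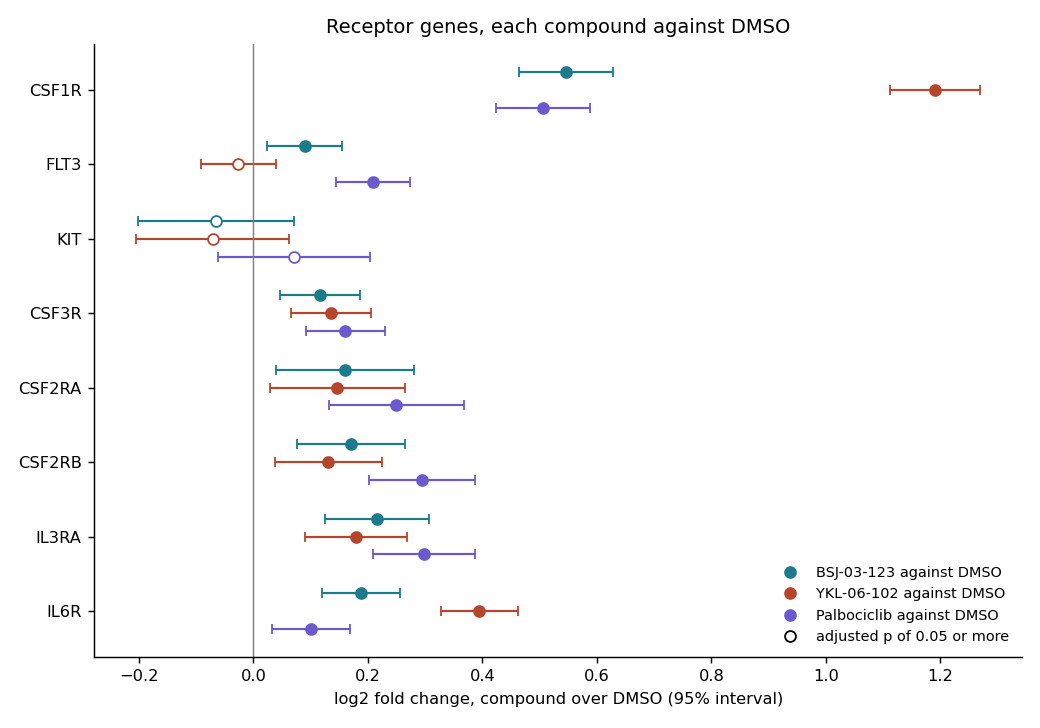
Log2 fold change of each receptor gene, compound over DMSO, with 95% intervals from the edgeR fit; filled points have an adjusted p under 0.05 and open points do not. CSF1R lies farthest to the right, at 1.19 under YKL-06-102, and every interval of KIT spans 0.

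The compounds were given at the same dose and time, and all 3 pairs were compared, with p-values adjusted over all tested genes of each pair. YKL-06-102 differed from palbociclib in 5 of the 8 receptors, with CSF1R and IL6R higher and FLT3, CSF2RB and IL3RA lower. Over all tested genes 12.7% were called higher and 11.9% lower in this pair. CSF1R was 1.61-fold higher under YKL-06-102 (log2 fold change 0.69 ± 0.037, adjusted p = 1.83e-14, edgeR) and IL6R 1.23-fold higher (0.29 ± 0.032, adjusted p = 4.52e-08, edgeR). FLT3 differed by -0.23 ± 0.031 on the log2 scale (adjusted p = 1.24e-06, edgeR). CSF2RB differed by -0.16 ± 0.044 (adjusted p = 0.00622) and IL3RA by -0.12 ± 0.042 (adjusted p = 0.0383, edgeR). The CSF2RB call was lost without YKL-06-102 replicate 1 or 2 or palbociclib replicate 2, and the IL3RA call was lost in 9 of 13 alternative fits. KIT, CSF3R and CSF2RA did not pass the test, with 95% intervals of -0.27 to -0.01 for KIT, -0.09 to 0.04 for CSF3R and -0.22 to 0.01 for CSF2RA. Without palbociclib replicate 2, KIT was called lower (-0.19, adjusted p = 0.0339, edgeR). That fit kept palbociclib replicate 3, at 51.0 CPM, beside replicate 1 at 41.3 CPM. Over the alternative fits the KIT difference ranged from -0.19 to -0.02.

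BSJ-03-123 differed from YKL-06-102 in 3 receptors, with FLT3 higher and CSF1R and IL6R lower, where 9.74% of all tested genes were called higher and 10.4% lower. CSF1R differed by -0.64 ± 0.037 (adjusted p = 1.22e-13) and IL6R by -0.21 ± 0.033 (adjusted p = 1.93e-05, edgeR), and neither call was lost in any alternative fit. FLT3 was 8.36% higher under BSJ-03-123 (0.12 ± 0.032, adjusted p = 0.00852, edgeR), a call lost in 5 of the 6 fits that left out 1 library. For the other 5 genes the 95% intervals of the log2 difference lay within -0.13 and 0.14.

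Between BSJ-03-123 and palbociclib 0 of 8 receptors passed edgeR's test, where 0.155% of all tested genes did. At an unadjusted p under 0.05 there were 4 of the 8 and 1198 of all tested genes, and DESeq2 and limma-voom each also called 0 of the 8. CSF1R differed by 0.04 ± 0.038, with a 95% interval of -0.04 to 0.12. For FLT3 the difference was -0.12 (interval -0.18 to -0.05, adjusted p = 0.142), with all BSJ-03-123 libraries below all palbociclib libraries, and it was called when the pair was fitted alone (adjusted p = 0.0441). The interval of IL6R ran from 0.02 to 0.15 and that of CSF2RB from -0.22 to -0.03, and those of the other 4 lay within -0.27 and 0.03.

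**Figure D4:**
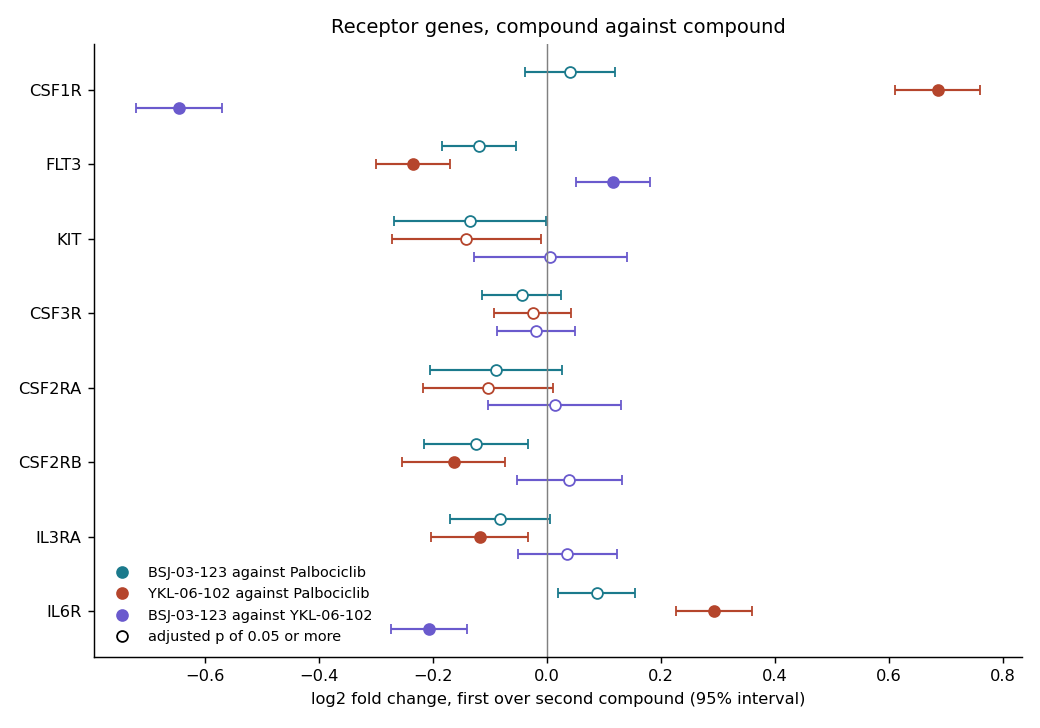
Log2 fold change of each receptor gene between compounds, first named over second, with 95% intervals from the edgeR fit; filled points have an adjusted p under 0.05. CSF1R and IL6R separate YKL-06-102 from the other compounds, and no point of BSJ-03-123 against palbociclib is filled.

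Across the 12 libraries, which share the group structure, CSF1R varied most like IL6R among the receptors (Pearson r of log2 CPM 0.95) while its r with FLT3 was -0.17. CSF3R and IL3RA (r = 0.89), CSF2RA and IL3RA (r = 0.84) and CSF2RB and IL3RA (r = 0.83) also moved alike, and KIT had no r above 0.26. Among 10331 genes whose log2 CPM averaged 2 or more, the 5 most like CSF1R were SIGLEC12 (r = 0.992), LIMA1 (0.992), TNFAIP2 (0.990), RASSF4 (0.989) and GYS1 (0.989). SIGLEC12 belongs to the SIGLEC gene family, LIMA1 is an actin-binding protein, and GYS1 a glycogen synthase. LIMA1, for example, was at 31.1 ± 0.564 CPM under BSJ-03-123, 42.6 ± 1.98 under YKL-06-102, 30.5 ± 0.948 under palbociclib and 24.2 ± 0.194 under DMSO (SD, n = 3 each). Most like FLT3 were SULT1B1 (r = 0.965), STK38L (0.960), TMEM106B (0.959), the deubiquitinase CYLD (0.942) and the histone demethylase KDM1B (0.939).

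Of 9 ligand genes, CSF1 alone was expressed strongly enough to test, and none of the compounds changed it by the test. Its mean was 1.01 CPM under BSJ-03-123, 1.32 under YKL-06-102, 1.23 under palbociclib and 1.31 under DMSO. Over all 12 libraries FLT3LG had 28 counts, KITLG 15, IL6 9, and IL34 and CSF3 1 each. CSF2, IL3 and IL5 had 0, and 0 allows up to 3 counts in a library, or 0.117 to 0.160 CPM at these depths, counting error only.

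IL6ST, the chain through which IL6R signals, rose under YKL-06-102. It was at 7.82, 8.95 and 8.59 CPM under BSJ-03-123, 16.3, 16.0 and 15.7 CPM under YKL-06-102, 8.81, 7.60 and 8.05 CPM under palbociclib, and 8.06, 7.59 and 9.17 CPM under DMSO. The YKL-06-102 libraries stood apart from the rest, which overlapped. The log2 fold change was 0.96 ± 0.083 under YKL-06-102 against DMSO (adjusted p = 1.40e-10) and 0.97 ± 0.082 against palbociclib (adjusted p = 1.75e-10, edgeR). For BSJ-03-123 against YKL-06-102 it was -0.92 ± 0.083 (adjusted p = 1.04e-09, edgeR). Of the 9 other receptors and shared chains listed, 4 were tested, and against DMSO the erythropoietin receptor EPOR was the only other one called, with a log2 fold change of -0.16 ± 0.058 under YKL-06-102 (adjusted p = 0.0343, edgeR) with overlapping libraries.

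Downstream of the receptors, several STAT genes rose with every compound. Of 10 tested JAK and STAT genes, 5 rose under BSJ-03-123, 5 rose and 1 fell under YKL-06-102, and 7 rose and 1 fell under palbociclib. For this list and the lists below, the shares of all tested genes called higher were 12.4%, 15.6% and 15.6% in that order. Those called lower were 15.7%, 21.3% and 17.6%. STAT3, which carries interleukin 6 and granulocyte factor signals, was at 99.0, 99.5 and 90.6 CPM under BSJ-03-123, 100.9, 97.8 and 97.0 under YKL-06-102, 97.2, 96.4 and 99.0 under palbociclib, and 78.0, 73.8 and 73.5 under DMSO, with treated libraries all above vehicle. Its log2 fold changes were 0.36, 0.39 and 0.38 for these compounds in that order, STAT6 had 0.30, 0.26 and 0.32, and STAT2 0.28, 0.36 and 0.39, all called. STAT5A, a factor that signals from FLT3 with the duplication, rose by 0.13 ± 0.044 under BSJ-03-123 (adjusted p = 0.0233), 0.38 ± 0.043 under YKL-06-102 (adjusted p = 2.96e-08) and 0.21 ± 0.044 under palbociclib (adjusted p = 4.52e-04, edgeR). It was also higher under YKL-06-102 than under palbociclib (0.17 ± 0.042, adjusted p = 0.00204, edgeR). STAT5B, at 83.0 CPM in DMSO against 43.6 for STAT5A, went the other way. Its log2 fold change was -0.12 ± 0.038 under YKL-06-102 (adjusted p = 0.0164) and -0.12 ± 0.038 under palbociclib (adjusted p = 0.0181, edgeR). Under BSJ-03-123 it was -0.07 ± 0.038 and not called.

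All 20 listed adaptors and effectors were tested. Against DMSO 11 rose under BSJ-03-123, 9 rose and 2 fell under YKL-06-102, and 9 rose under palbociclib, with the others not passing the test. The myeloid kinases FES and FGR had the smallest p-values of the list in each comparison against DMSO, with log2 fold changes for FES of 0.35 under BSJ-03-123, 0.36 under YKL-06-102 and 0.45 under palbociclib, and for FGR of 0.40, 0.42 and 0.45 in the same order. GAB2, a docking protein for PI3 kinase and SHP2, and LYN, a SRC family kinase, were higher under YKL-06-102 than under palbociclib (0.26 ± 0.034 for GAB2, adjusted p = 7.00e-07, and 0.22 ± 0.031 for LYN, adjusted p = 2.33e-06, edgeR). The PI3 kinase genes PIK3R1 (-0.23 ± 0.039, adjusted p = 3.47e-05) and PIK3CD (-0.17 ± 0.030, adjusted p = 8.93e-05, edgeR) were lower in that pair.

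Genes that restrain receptor signals also changed. Of 14 tested negative regulators, 8 rose under BSJ-03-123, 7 rose and 2 fell under YKL-06-102, and 6 rose under palbociclib. SOCS3, an inhibitor of gp130 and granulocyte factor signals that STAT3 induces, was at 8.43, 9.47 and 7.88 CPM under BSJ-03-123, 11.6, 11.0 and 12.9 CPM under YKL-06-102, 8.33, 7.64 and 7.76 CPM under palbociclib, and 6.80, 8.03 and 6.73 CPM under DMSO. It rose by 0.71 ± 0.095 under YKL-06-102 against DMSO (adjusted p = 5.25e-07, edgeR) and by 0.58 ± 0.091 against palbociclib (adjusted p = 1.24e-05, edgeR). CBL, the ubiquitin ligase that sends activated CSF1R, FLT3 and KIT for degradation, had log2 fold changes of 0.25 under BSJ-03-123, 0.28 under YKL-06-102 and 0.16 under palbociclib, and the phosphatase PTPN6 (SHP1) of 0.20 under BSJ-03-123, 0.19 under YKL-06-102 and 0.20 under palbociclib, all called. PTPRC, the phosphatase CD45, was lower under YKL-06-102 than under palbociclib (-0.50 ± 0.042, adjusted p = 2.40e-10, edgeR). Against DMSO, PTPRC was called higher under palbociclib (0.25) and BSJ-03-123 (0.13) and lower under YKL-06-102 (-0.25). Of 6 tested genes of receptor shedding and turnover, 2 rose under BSJ-03-123, 3 under YKL-06-102 and 3 under palbociclib, among them USP8, a deubiquitinase of internalised receptors, with log2 fold changes of 0.19, 0.13 and 0.15 for the compounds in that order.

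Among transcription factors known to act on these receptor genes, the PU.1 gene SPI1 moved under YKL-06-102. SPI1 was at 335, 337 and 325 CPM under BSJ-03-123, 428, 439 and 444 CPM under YKL-06-102, 323, 340.5 and 334 CPM under palbociclib, and 305, 339.5 and 300.2 CPM under DMSO. The YKL-06-102 libraries stood above all others, which overlapped. The log2 fold change under YKL-06-102 was 0.47 ± 0.037 against DMSO (adjusted p = 2.19e-11, edgeR) and 0.40 ± 0.036 against palbociclib (adjusted p = 1.45e-09, edgeR). Of 14 tested factors, 4 rose under BSJ-03-123, 7 rose and 2 fell under YKL-06-102, and 2 rose under palbociclib. The monocyte factor KLF4, at under 3 CPM in every library, rose by 0.60 ± 0.20 under BSJ-03-123 (adjusted p = 0.0253) and 0.90 ± 0.19 under YKL-06-102 (adjusted p = 2.87e-04, edgeR), and its log2 fold change under palbociclib was 0.0053 (adjusted p = 0.993). Compared directly, BSJ-03-123 and palbociclib did not differ in KLF4 by the test (0.59 ± 0.20, adjusted p = 0.312, edgeR). GATA2, a factor of progenitors and mast cells, fell under YKL-06-102 (-0.69 ± 0.12, adjusted p = 2.21e-05, edgeR), and the granulocytic factor CEBPE had log2 fold changes of 0.64 under BSJ-03-123, 0.67 under YKL-06-102 and 0.70 under palbociclib, all called, at 3.30 CPM or less. Median log2 fold changes under BSJ-03-123, YKL-06-102 and palbociclib against DMSO were 0.13, 0.15 and 0.17 for the JAK and STAT genes, 0.12, 0.09 and 0.09 for the adaptors, and 0.16, 0.15 and 0.13 for the negative regulators. In the same order they were 0.06, 0.09 and 0.02 for the transcription factors, 0.07, 0.06 and 0.06 for shedding and turnover, and 0.09, 0.42 and 0.05 for the other receptors and shared chains. The last list had only 4 tested genes. Under YKL-06-102, 1 of them was called higher and 1 lower, and the median of 0.42 fell between 2 uncalled genes at 0.14 and 0.70. The counts and medians of these lists stand beside the shares and medians of all tested genes given above, and the lists were not tested as sets.

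**Figure D5:**
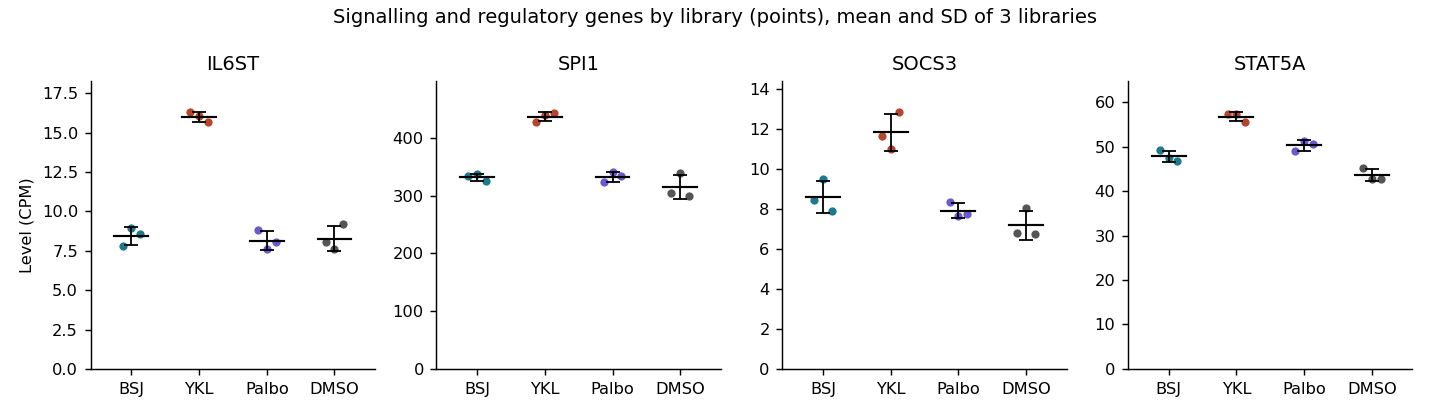
Level of 4 signalling and regulatory genes in CPM on a linear axis from 0, by group (abbreviated as in the plot of receptor levels); points are libraries, and lines and bars are the mean and SD of 3. IL6ST, SPI1, SOCS3 and STAT5A are highest under YKL-06-102, as are CSF1R and IL6R.

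Neighbouring genes were examined for shared change. HMGXB3, 0.149 kb from CSF1R, had log2 fold changes of 0.02 under BSJ-03-123, 0.04 under YKL-06-102 and 0.02 under palbociclib, none called, and the related kinase gene PDGFRB, 0.465 kb away on the other side, stayed under 0.8 CPM and was not called. The log2 fold changes of PDGFRB were 0.42, 0.70 and 0.60 in the same order, with SE of 0.49, 0.46 and 0.46. SLC25A6, 3.46 kb from IL3RA, had 0.03, 0.03 and 0.01 in the same order, none called. NCF4, a subunit of the phagocyte oxidase 35.6 kb from CSF2RB, rose with each compound, by 0.13, 0.12 and 0.20 on the log2 scale for BSJ-03-123, YKL-06-102 and palbociclib. Whether counting used strand is not given in the sources used here. The pseudogene RPL7P1 overlaps CSF1R and had 202 counts over all libraries, 0.776% of those of CSF1R.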

How the data were processed

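Polyadenylated RNA of 12 libraries was sequenced after a stranded mRNA preparation, per the labels' protocols. The authors deposited raw read counts per Ensembl gene, not normalized. Tools named in the submitters' processing notes are Trimmomatic 0.36 (trimming), STAR 2.5.2b (alignment) and HTSeq (counting), and the build is hg38. Not given in these sources were the HTSeq version, the annotation release, the strand setting, and any batch or date. Libraries were grouped by their titles. GENCODE 29 gave symbols for 57447 of 58051 gene IDs, positions and exon lengths.

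A single fit of all 12 libraries was made in R 4.3.3 using edgeR 4.0.16: TMM scaling, filterByExpr (minimum count 10, minimum total 15), which kept 14214 genes, and 2-sided quasi-likelihood tests of 6 contrasts with Benjamini-Hochberg adjustment over these genes, called under 0.05. For log2 fold changes, SE and 95% interval are Wald estimates from the fit, whose common biological coefficient of variation was 3.08%. The test was also run on simulated counts with the same spread for every gene and no aberrant library. That run therefore does not measure error rates in these data. Precision depended on depths of 18764307 to 25539858 counts and on the spread between libraries, and reads had no molecular identifiers. The alternatives were RLE size factors, library totals alone, no filter, DESeq2 1.42.0, limma-voom (limma 3.58.1), fits of only the groups compared, a replicate block, and leaving out each library in turn. For BSJ-03-123 and DMSO, deviations of same-numbered libraries from their group means correlated at 0.122, 0.261 and 0.241, and of differently numbered ones at -0.25 to 0.096. Over all pairs of groups, 5 of 18 same-numbered and 9 of 36 differently numbered library pairs exceeded 0.1. These values therefore do not establish that the numbers pair libraries, and the labels do not say so. A block fit of BSJ-03-123 and DMSO was added after seeing the data. Promoter windows came from RefSeq. Named list members are, at most, the 4 of smallest p in a list and contrast, and some appear with values from further contrasts. STAT5B is named in addition, beside STAT5A. The receptors, gene lists and motifs were chosen with earlier results of these data known.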

Additional observations from a re-analysis of the deposited data

How the results depend on the processing

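Of the single-gene values of the 8 receptors in 6 comparisons, 325 kept their direction and call in the fits with all libraries, 12 lost the call and 1 gained it, and without single libraries 238 kept both, 35 lost the call and 1 gained it. A change of direction occurred for uncalled values near 0 alone. With library totals FLT3 in YKL-06-102 against DMSO became 0.011 and with no filter 0.0030. For BSJ-03-123 against YKL-06-102, KIT became -0.0039 with RLE size factors, -0.010 with no filter and -0.0041 with DESeq2, and CSF2RA -0.0027 with no filter. Without single libraries, these log2 values ranged from -0.049 to 0.011 for KIT, -0.025 to 0.038 for CSF2RA, -0.0067 to 0.064 for CSF2RB and -0.0025 to 0.057 for IL3RA in that pair, from -0.022 to 0.0049 for CSF3R in YKL-06-102 against palbociclib, and from -0.050 to 0.14 for KIT in palbociclib against DMSO.

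Receptors called without single libraries numbered 3 to 5 for BSJ-03-123 against DMSO and 3 to 4 for YKL-06-102 against palbociclib. With only the groups compared, 1 receptor (FLT3) was called for BSJ-03-123 against palbociclib. All genes called in that pair numbered 22, but 64 with no filter, 43 with DESeq2, 75 with only the groups compared and 3 to 14 without single libraries. With library totals alone the calls over all genes were 2877 higher and 2422 lower for YKL-06-102 and 3396 higher and 1949 lower for palbociclib against DMSO, in place of 2215 and 3034, and 2224 and 2507; no scaling moved the median of all genes by over 0.1. Levels in DMSO per kb of longest transcript were 102 CPM for FLT3, 27.7 for IL6R, 18.2 for CSF3R, 15.8 for CSF1R, 10.4 for CSF2RA and 8.01 for KIT. The causes of these shifts were not tested.

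Between BSJ-03-123 and DMSO the deviations of same-numbered libraries all correlated above 0.1. In the other comparisons they did not all exceed 0.1 (-0.25 to 0.26 over all 18 same-numbered pairs). Differently numbered pairs ranged from -0.30 to 0.28, so the replicate numbers were not shown to pair the libraries. With the replicate number as a block, 3991 genes were called for BSJ-03-123, 5244 for YKL-06-102 and 4687 for palbociclib against DMSO, and 26 for BSJ-03-123 against palbociclib. CSF2RA in YKL-06-102 against DMSO was the 1 receptor whose call this block changed (0.14, adjusted p = 0.0547, edgeR). A block fit of BSJ-03-123 and DMSO alone, chosen after seeing the data, called 4010 genes and 6 receptors, FLT3 not among them. Against DMSO, each receptor increase of 13.3% or more was called in every alternative fit run, and of the smaller ones only those of CSF3R under YKL-06-102 and palbociclib were.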
